A study of Homo sapiens with 6 samples.

Results

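The 33 genes described here are interferon-stimulated genes, chosen by name as well-known members of the class and not by a threshold on the values measured in these samples. All 33 were found among the 22503 genes of the deposited count table, where RIGI is written under its older symbol DDX58, and all 33 passed the filter on low counts. RNA sequencing measured them in CAL-27, a human tongue carcinoma cell line of squamous type, after 48 h with DHA (3 libraries) or with the solvent DMSO (3 libraries). DHA was read as dihydroartemisinin because the title of the series speaks of artemisinin derivatives, and no source at hand states how much was added. The 6 libraries share 1 line, and no label tells whether the replicates were grown apart. The p-values therefore speak of the spread among these libraries only, which may be technical.

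Type I interferons, which nearly all cells can make, and type III interferons, which act mainly on epithelia, signal through receptor-bound JAK kinases to a complex that holds STAT2 and IRF9. That complex binds a DNA element, the interferon-stimulated response element, near the start of many genes, whose products sense foreign RNA, degrade it, block virus entry or limit the signal itself. Some of these genes are also transcribed at a low, constant rate without added interferon, and many carcinoma lines show such a basal level.

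The element itself can be read in front of the genes that the results below turn on. The letters GAAA, any 2 bases and GAAA again, searched on both strands from 250 bases before to 50 bases after the transcript start in RefSeq promoters of GRCh38.p14, were present in 18 of the 27 members with a promoter entry (66.7%) and in 3.57% of all 35116 promoters. The gamma-activated element TTCNNNGAA, which reads the same on both strands, was present in 7 of the 27 (25.9%) and in 7.66% of all promoters. IFIT2, IRF7, MX2, OAS2, OASL and USP18 had no entry. Stretches upstream of the start are printed 5′ to 3′ on the gene's strand, for the pair of genes that fell (IFIT1 and IFI44L), their neighbours IFIT3 and IFI44, and ISG20, ISG15 and BST2, which had the largest changes that missed the threshold; capitals mark this element or its reverse complement. In ISG15 and in BST2 a pair of matches overlaps, and in BST2 the first of them also overlaps a TTCNNNGAA match. The ISG20 stretch precedes a start that lies within the annotated span of the gene, 88635632 to 88656483, and not at its edge.
IFIT1 (chr10:89392492-89392544, plus strand): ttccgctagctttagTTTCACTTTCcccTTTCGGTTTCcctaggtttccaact
IFIT3 (chr10:89327826-89327899, plus strand): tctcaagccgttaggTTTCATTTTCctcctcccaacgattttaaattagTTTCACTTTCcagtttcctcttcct
IFI44L (chr1:78620269-78620399, plus strand): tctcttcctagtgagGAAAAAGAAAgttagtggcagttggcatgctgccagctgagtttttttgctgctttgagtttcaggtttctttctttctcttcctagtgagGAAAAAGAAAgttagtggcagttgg
IFI44 (chr1:78649756-78649788, plus strand): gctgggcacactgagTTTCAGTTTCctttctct
ISG20 (chr15:88638932-88638971, plus strand): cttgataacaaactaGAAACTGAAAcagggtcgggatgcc
ISG15 (chr1:1013369-1013414, plus strand): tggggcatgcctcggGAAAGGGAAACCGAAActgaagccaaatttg
BST2 (chr19:17405730-17405775, minus strand): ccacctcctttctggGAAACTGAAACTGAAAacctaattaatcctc
The 18 members with a match had a median log2 fold change, DHA over DMSO, of -0.17, with 14 negative values. The 9 without one had a median of -0.17 too, with 7 negative values.

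In DHA, 2 of the 33 interferon-stimulated genes fell, IFIT1 and IFI44L, and 0 rose. Calls were made with edgeR's quasi-likelihood test on the counts of the 6 libraries, with Benjamini-Hochberg adjustment of the p-values across the 14649 genes that were tested and a threshold of 0.05. By that rule 6.06% of the 33 were lower in DHA and 0% higher, against 1.6% and 1.1% of all genes. At an unadjusted p under 0.05, 8 of the 33 were lower and 2 higher, or 24.2% and 6.06%, against 10.7% and 9.59% of all genes. By DESeq2, 3 members were lower (IFIT1, IFI44L and BST2) and 1 higher (ISG20), beside 682 lower and 453 higher among all 14649 genes. By limma-voom, 2 members were lower (IFIT1 and IFI44L) and 0 higher, beside 217 lower and 148 higher among all 14649. The log2 fold change was negative for 26 of the 33 (78.8%) and for 49.7% of all genes, and its median was -0.21 for the 33, within a range from -1.0 to 0.75, beside 0.00281 for all genes. The median deviation of the 33 from the DMSO mean, in log2 CPM (CPM being counts scaled to a total of 1e6), was -0.20, -0.18 and -0.23 in the 3 DHA libraries, against 0.05, -0.13 and 0.06 in the 3 DMSO libraries. Levels of 12 members, or 36.4%, were lower in every DHA library than in every DMSO library, which held for 13.5% of all genes. The opposite held for ISG20 alone, or 3.03%, and for 14.3% of all genes.

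**Figure D1:**
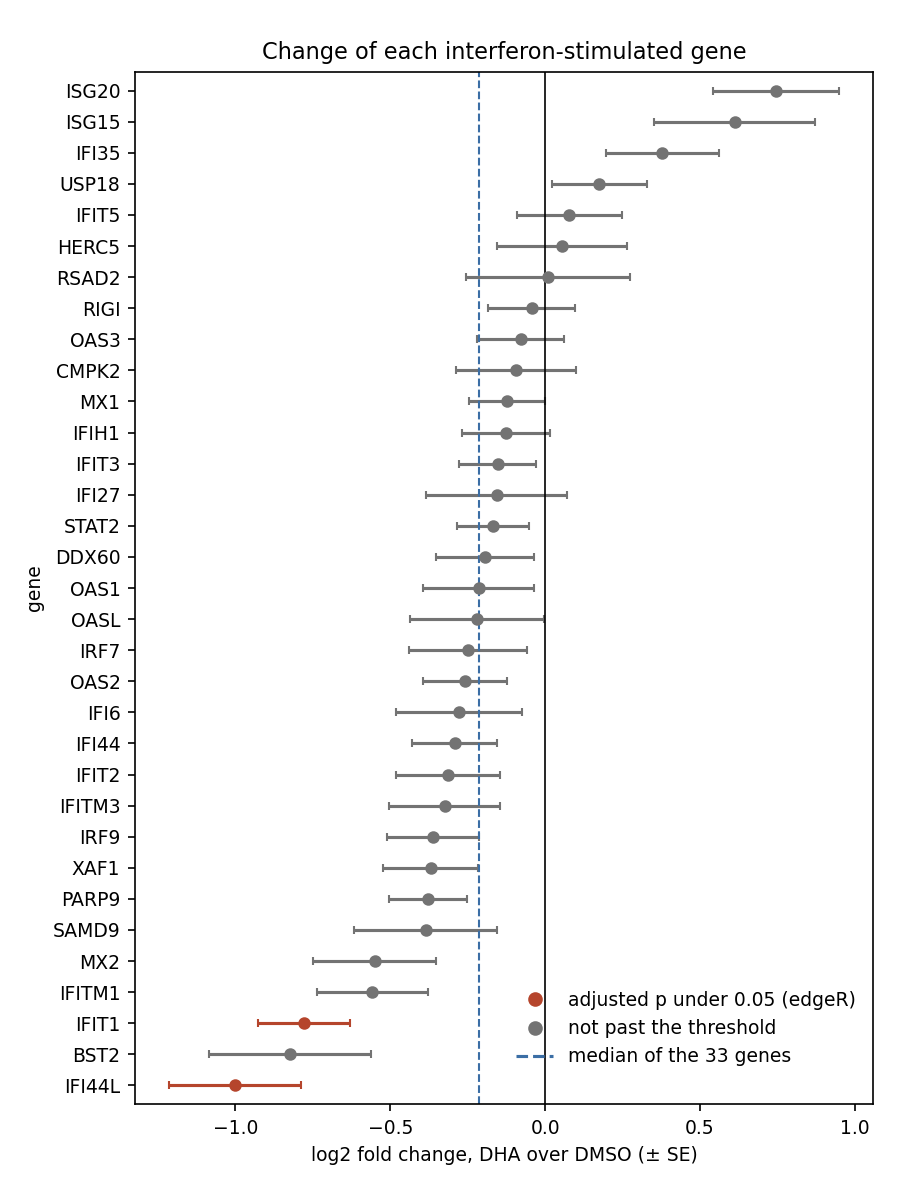
Log2 fold change, DHA over DMSO, with its standard error for each of the 33 genes, sorted from ISG20 (0.75) at the top to IFI44L (-1.0) at the bottom. Red marks IFIT1 and IFI44L, the 2 genes past the edgeR threshold; the dashed line is the median of -0.21.

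The count of calls depended on the library left out. It was 0 without DHA 1, without DMSO 2 or without DMSO 3, 1 without DHA 2 or without DMSO 1, and 3 without DHA 3. Over all genes it was 395 with all libraries, 16 without DHA 1, 46 without DMSO 2 and 789 without DHA 3. The third call without DHA 3 was ISG20, which then rose.

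IFIT1 binds the caps of foreign RNA and blocks their translation. Its level, in CPM with TMM scaling, was 14.3, 15.1 and 12.9 in the DHA libraries and 22.1, 23.5 and 27.0 in the DMSO libraries. The groups did not overlap, and each was tight, at 14.1 ± 1.11 CPM in DHA and 24.2 ± 2.55 CPM in DMSO (SD, n = 3 each). The log2 fold change was -0.78 ± 0.15 (SE, edgeR adjusted p = 0.0293). The call was lost without DHA 1 (edgeR adjusted p = 0.143), without DMSO 2 (0.101) or without DMSO 3 (0.103), while the log2 fold change stayed between -0.84 and -0.69. IFIT1 lies on chromosome 10 at 89392623 to 89406487 (GRCh38.p14), in a cluster with IFIT2, IFIT3 and IFIT5.

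The other 3 members of that cluster did not pass. IFIT3, which binds IFIT1 and stabilises it, had 76.3, 83.3 and 73.2 CPM in DHA and 89.2, 80.1 and 89.5 CPM in DMSO (log2 fold change -0.15 ± 0.12). IFIT2, a partner of IFIT1 and IFIT3 that also promotes cell death, had 79.5, 70.4 and 76.5 CPM in DHA and 119, 81.4 and 81.3 CPM in DMSO (-0.31 ± 0.17). For IFIT2 the groups did not overlap, but DMSO 1 alone was far above the other DMSO libraries. IFIT5 had 25.0 ± 3.66 CPM in DHA and 23.7 ± 3.69 CPM in DMSO (0.08 ± 0.17). Within a library, a ratio of counts does not depend on the scaling. IFIT1 had 0.188, 0.181 and 0.176 counts per count of IFIT3 in DHA and 0.247, 0.294 and 0.302 in DMSO. Per count of IFIT5 it had 0.627, 0.657 and 0.441 in DHA and 1.11, 0.969 and 0.996 in DMSO. Both ratios were lower in every DHA library, so within the cluster the level of IFIT1 was lower relative to those neighbours too. Per count of IFIT2 the groups overlapped.

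IFI44L, a poorly understood gene that marks the interferon response in blood and is thought to restrain it, was the member with the largest change. It had 7.71, 5.62 and 7.91 CPM in DHA and 17.4, 11.3 and 13.9 CPM in DMSO. The groups did not overlap, and DMSO 1 was the highest library. The log2 fold change was -1.0 ± 0.21 (SE, edgeR adjusted p = 0.0416). Of the 6 fits with a library left out, the call held in 1, that without DHA 3. Without DHA 1 the edgeR adjusted p was 0.131, without DMSO 1 it was 0.0992, without DHA 2 0.0870, without DMSO 3 0.0838 and without DMSO 2 0.0701, with log2 fold changes between -1.14 and -0.83. With unscaled library totals it was 0.0525.

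IFI44, its neighbour and paralog, had 36.9, 39.8 and 37.4 CPM in DHA and 44.3, 42.3 and 53.1 CPM in DMSO. Here too the DHA libraries were all below the DMSO libraries, but the log2 fold change of -0.29 ± 0.14 missed the threshold (edgeR adjusted p = 0.262). Counts of IFI44L per count of IFI44 were 0.209, 0.141 and 0.212 in DHA and 0.393, 0.266 and 0.261 in DMSO. The pair lies side by side on chromosome 1, IFI44L at 78620448 to 78646145 and IFI44 at 78649789 to 78664078.

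**Figure D2:**
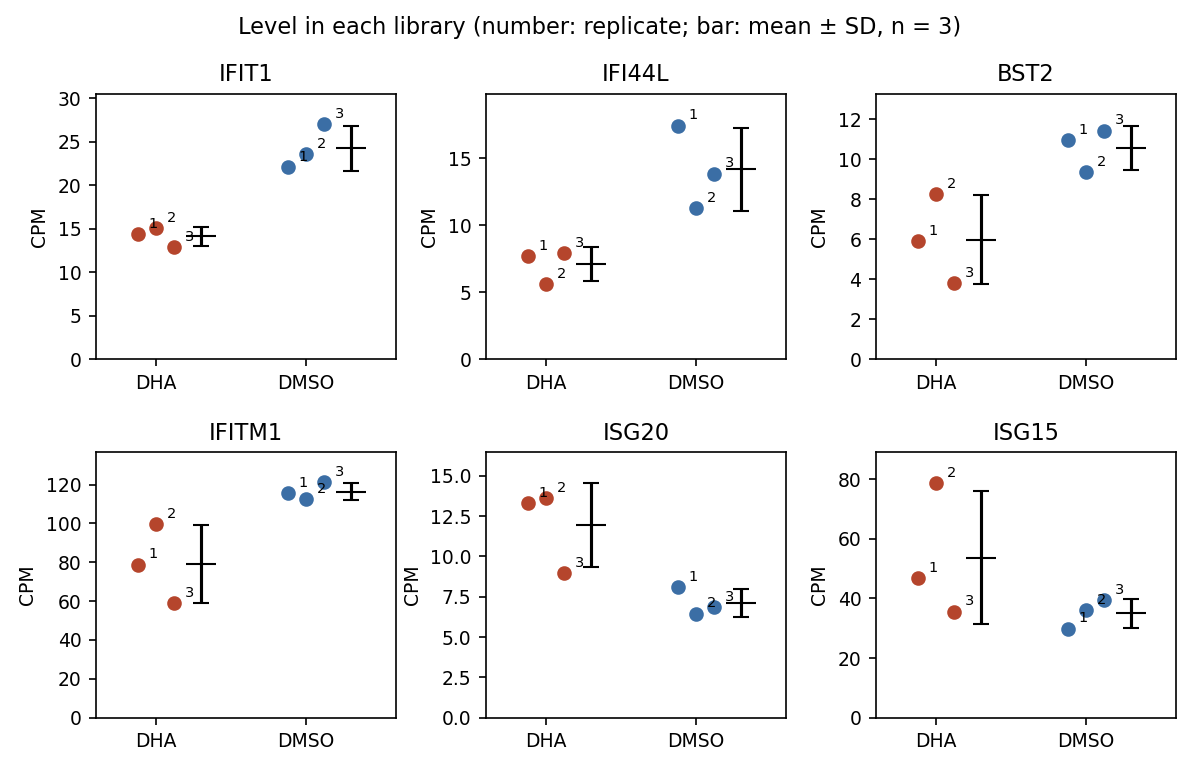
Level in CPM of 6 members in each library, DHA left of DMSO in each panel, with the replicate number beside each point and the mean ± SD (n = 3) beside the points. IFIT1 and IFI44L passed the edgeR threshold and BST2, IFITM1, ISG20 and ISG15 did not; DHA 2 and DHA 3 are the highest and the lowest of the DHA libraries for BST2, IFITM1, ISG20 and ISG15.

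Among the genes that carry the signal, the cytosolic sensors of foreign RNA differed little. RIGI had 35.4 ± 1.65 CPM in DHA and 36.4 ± 4.74 CPM in DMSO (log2 fold change -0.04 ± 0.14). IFIH1, which encodes MDA5, had 44.9 ± 5.56 CPM in DHA and 49.0 ± 3.86 CPM in DMSO (-0.13 ± 0.14). A change of the size of these standard errors would not have been detected.

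The transcription factors were lower by small amounts that did not pass. STAT2 had 72.3, 71.4 and 73.2 CPM in DHA and 86.1, 81.0 and 76.7 CPM in DMSO (log2 fold change -0.17 ± 0.12), with groups that did not overlap. IRF9, the DNA-binding partner of STAT2, had 22.5, 21.5 and 19.6 CPM in DHA and 29.9, 23.4 and 28.4 CPM in DMSO, again without overlap (-0.36 ± 0.15, edgeR adjusted p = 0.211). IRF7, which drives the genes of the alpha interferons, had 10.5 ± 1.06 CPM in DHA and 12.4 ± 2.70 CPM in DMSO (-0.25 ± 0.19). DMSO 1 stood at 15.5 CPM, DMSO 3, at 11.38 CPM, was just above the highest DHA library (11.32), and DMSO 2 lay within the DHA range.

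ISG15, a ubiquitin-like protein that is attached to newly made proteins, stood on the other side. It had 46.8, 78.6 and 35.5 CPM in DHA and 29.9, 36 and 39.4 CPM in DMSO. DHA 2 was far above the rest and DHA 3 lay among the DMSO libraries, so the groups overlapped. The log2 fold change was 0.61 ± 0.26 (SE, edgeR adjusted p = 0.228), and 0.23 without DHA 2. HERC5, the main ligase that attaches ISG15, had 7.54 ± 1.02 CPM in DHA and 7.26 ± 1.53 CPM in DMSO (0.05 ± 0.21). USP18, which removes ISG15 and also silences the interferon receptor, had 12 ± 0.456 CPM in DHA and 10.6 ± 1.03 CPM in DMSO (0.17 ± 0.15). None of these 3 had a negative log2 fold change. Of the 7 members whose log2 fold change was positive, the remaining 4 were ISG20, IFI35, IFIT5 and RSAD2. UBA7 and UBE2L6, which also serve the attachment of ISG15, are not members. UBA7 had 7.54 ± 1.15 CPM in DHA and 12.3 ± 1.33 CPM in DMSO, without overlap (-0.71 ± 0.18, edgeR adjusted p = 0.0745). UBE2L6 had 100.2 ± 16.5 CPM in DHA and 96.7 ± 3.94 CPM in DMSO (0.05 ± 0.14).

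The OAS enzymes make short oligoadenylates that switch on the ribonuclease RNase L. OAS1, OAS3 and OAS2 lie next to each other on chromosome 12, from 112906962 to 113011723, and OASL, which has lost the enzyme activity, lies apart at 121017761 to 121039246. All 4 had a negative log2 fold change, from -0.26 ± 0.14 for OAS2 to -0.08 ± 0.14 for OAS3, and none passed. OAS2 had 51.3, 53.4 and 56.1 CPM in DHA and 63.4, 56.4 and 72.6 CPM in DMSO, without overlap. OAS3, the longest of the 4 transcripts, had 182, 160.2 and 220.3 CPM in DHA and 205, 189.6 and 199 CPM in DMSO.

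The dynamin-like GTPases MX1 and MX2, which trap virus particles, lie side by side on chromosome 21. MX1 had 114 ± 1.1 CPM in DHA and 124 ± 11.6 CPM in DMSO (log2 fold change -0.12 ± 0.12). MX2 had 16, 12.6 and 13.3 CPM in DHA and 26.1, 16.3 and 19.1 CPM in DMSO (-0.55 ± 0.20, edgeR adjusted p = 0.166). For MX2 the groups came close without overlapping, and DMSO 1 was the highest.

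The 3 membrane proteins that stop virus entry or release had a median log2 fold change of -0.56, and none passed. BST2, or tetherin, which holds budding virus at the cell surface, had 5.90, 8.24 and 3.81 CPM in DHA and 11, 9.34 and 11.4 CPM in DMSO. The groups did not overlap, but the DHA libraries were spread widely, and the log2 fold change of -0.82 ± 0.26 did not pass (edgeR adjusted p = 0.129). By DESeq2 the adjusted p of BST2 was 0.0384. IFITM1, which hinders the fusion of virus and cell membranes, had 78.8, 99.5 and 59.0 CPM in DHA and 116, 112 and 121 CPM in DMSO (-0.56 ± 0.18, edgeR adjusted p = 0.134). Its paralog IFITM3, which acts on endosomes, had 334, 421 and 249.99 CPM in DHA and 440.1, 404 and 414 CPM in DMSO (-0.32 ± 0.18). DHA 2 lay among the DMSO libraries for IFITM3, while DHA 3 was the lowest for all 3 genes. Counts of IFITM1 per count of IFITM3 were 0.236 in each of the 3 DHA libraries and 0.263, 0.278 and 0.293 in the DMSO libraries. Both genes thus varied together among the DHA libraries, and the ratio was lower in every DHA library. IFITM1, IFITM2 and IFITM3 are close paralogs on chromosome 11, so the division of reads among them is uncertain.

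The small hydrophobic proteins IFI6 and IFI27, found in mitochondria and the endoplasmic reticulum, gave overlapping groups. IFI6 had 39.3 ± 11.4 CPM in DHA and 47.6 ± 2.88 CPM in DMSO, and IFI27 had 26.6 ± 8.20 CPM in DHA and 29.6 ± 5.25 CPM in DMSO. For both, DHA 3 was the lowest of the 6 libraries and DHA 2 the highest of the DHA libraries.

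ISG20, an exonuclease that degrades viral RNA, was the only member higher in every DHA library. It had 13.3, 13.6 and 8.96 CPM in DHA and 8.11, 6.45 and 6.84 CPM in DMSO, so that DHA 3 stood just above DMSO 1. The log2 fold change was 0.75 ± 0.20 (SE, edgeR adjusted p = 0.0905). It passed without DHA 3 (edgeR adjusted p = 0.0285) and in the Wald test of DESeq2 (adjusted p = 0.0173). RSAD2, or viperin, makes a nucleotide that ends viral RNA chains, and its neighbour CMPK2, whose annotated span on chromosome 2 overlaps that of RSAD2, supplies the precursor. RSAD2 was the least abundant member, with 2.01 ± 0.150 CPM in DHA and 2.0 ± 0.436 CPM in DMSO (0.01 ± 0.26), and CMPK2 had 7.0 ± 1.1 CPM in DHA and 7.46 ± 1.0 CPM in DMSO (-0.09 ± 0.19).

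The 5 remaining effectors did not pass. PARP9, which works with the ubiquitin ligase DTX3L to strengthen interferon signals, had 46.5, 41.6 and 49.2 CPM in DHA and 60.7, 56.1 and 61.7 CPM in DMSO. The groups were well apart, but the log2 fold change of -0.38 ± 0.13 had an edgeR adjusted p of 0.147. DTX3L, not one of the 33, has an annotated span that overlaps that of PARP9. DTX3L had 85.1 ± 16 CPM in DHA and 93.5 ± 15.4 CPM in DMSO (-0.14 ± 0.17). Counts of PARP9 per count of DTX3L were 0.54, 0.61 and 0.49 in DHA and 0.55, 0.68 and 0.72 in DMSO, so here the groups overlapped. XAF1, which counters an inhibitor of caspases, had 14.7, 12.1 and 15.4 CPM in DHA and 19.3, 16.9 and 18.2 CPM in DMSO, without overlap (-0.37 ± 0.15). SAMD9, an antiviral factor, had 58.1, 44.5 and 80.6 CPM in DHA and 101, 66.7 and 71.6 CPM in DMSO (-0.39 ± 0.23). For SAMD9, both groups were spread widely, and DMSO 1 was the highest. The helicase DDX60 had 21.4 ± 3.53 CPM in DHA and 24.5 ± 2.02 CPM in DMSO, and IFI35, a signalling partner of NMI, had 28.3 ± 6.69 CPM in DHA and 21.7 ± 1.15 CPM in DMSO (0.38 ± 0.18).

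**Figure D3:**
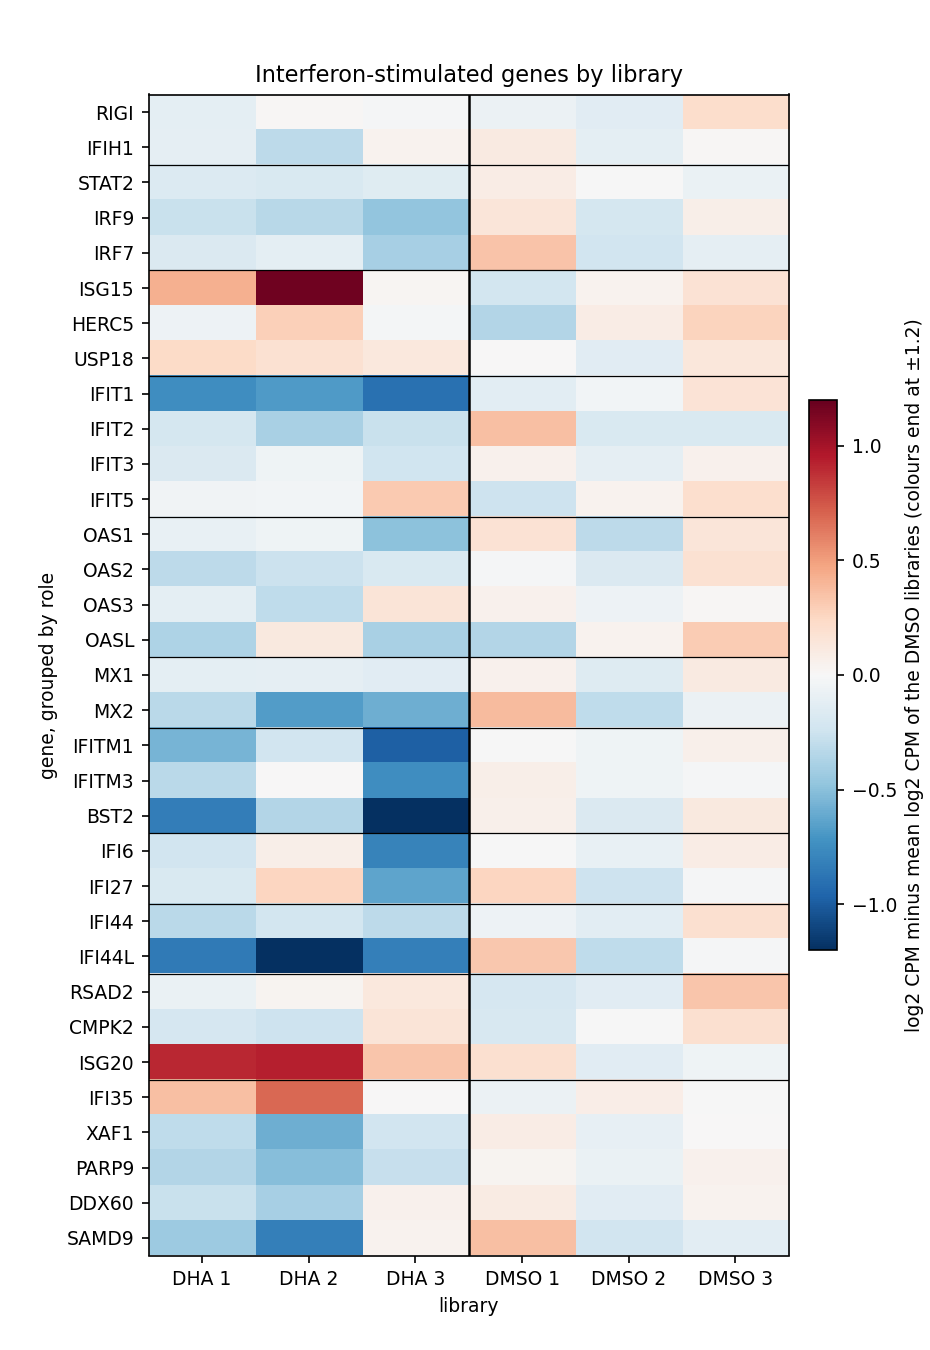
Log2 CPM of each member in each library minus the mean of the DMSO libraries, DHA libraries left of the line and DMSO libraries right of it, with genes grouped by role between thin lines. IFIT1 and IFI44L are blue in all 3 DHA libraries, ISG20 is red in them, and the short transcripts ISG15, IFITM1, IFITM3, BST2, IFI6, IFI27 and IFI35 differ between DHA 2 and DHA 3.

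The DHA libraries differed among themselves in an ordered way. The 7 members with a principal transcript under 1500 bases (ISG15, IFI27, IFITM3, IFI6, IFITM1, BST2 and IFI35) were all lower in DHA 3 than in DHA 2, by a median of -0.87 in log2 CPM. Of the 12 members over 3500 bases, 2 were lower in DHA 3, and the median difference was 0.35. These limits were set after the values were seen. Across the 33 genes, the difference between DHA 3 and DHA 2 had a Spearman correlation of 0.87 with transcript length and of -0.71 with GC content, and across 13119 genes tested it had 0.58 and -0.55. For DMSO 1 minus DMSO 2, the only DMSO pair examined, the correlation with length was 0.13 across the 33 genes and 0.23 across the 13119. These are descriptions of 1 pair of libraries in each group, in which the genes share depth and preparation. The log2 fold change between the groups had a correlation of 0.02 with length across the 33 genes and of -0.32 across the 13119. When a trend in GC content and length was removed from each library, an analysis added after the data were seen, 7 members were lower and 0 higher: IFIT1, IFI44L, BST2, IFITM1, IFITM3, IFI6 and PARP9. All genes lower in that fit numbered 549, and all higher 581, of 13119.

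**Figure D4:**
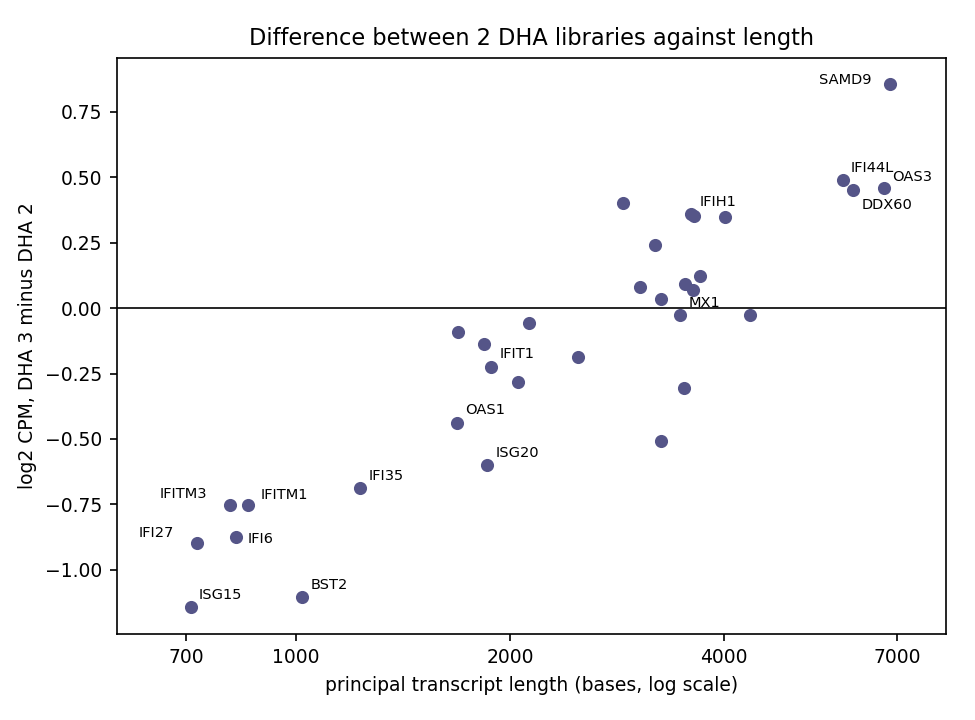
Difference in log2 CPM between DHA 3 and DHA 2 for each of the 33 genes against the length of its principal transcript on a log scale. The 7 transcripts under 1500 bases all lie below 0, and SAMD9, the longest, has the highest value.

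Levels can be compared between genes only per length. In CPM per kilobase of principal transcript, IFITM3 was the most abundant member, at 415 ± 106 in DHA and 519 ± 23.1 in DMSO. IFITM1 followed with 92.5 ± 23.7 in DHA and 136 ± 5.23 in DMSO, a gap to IFITM3 well beyond the spread of either. ISG15 had 75.4 ± 31.4 in DHA and 49.3 ± 6.81 in DMSO, and IFI6 had 47.8 ± 13.9 in DHA and 57.9 ± 3.51 in DMSO, so that these neighbours in rank overlapped. IFI27 came next, at 36.7 in DHA and 40.9 in DMSO. MX1, IFIT3, OAS1 and OAS3 lay between 26.2 and 32.8 in DHA and between 29.5 and 35.7 in DMSO. RSAD2 was lowest, at 0.572 ± 0.0425 in DHA and 0.568 ± 0.124 in DMSO. Among genes tested, the members spanned the percentiles from 11.4 to 99.1 of this measure.

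The rest of the interferon pathway was examined with 7 lists of 118 genes, of which 101 were in the table and 92 were tested. In these, 3 genes fell and 2 rose, or 3.26% and 2.17% of those tested, against 1.6% and 1.1% of all genes. The median log2 fold change was -0.09. Of 21 interferon genes, 17 were not analysed here. IFNE, a type I interferon of epithelia, was the only one tested, with 1.47 ± 0.433 CPM in DHA and 1.17 ± 0.456 CPM in DMSO. IFNB1 had 0 counts in each DHA library and 2, 2 and 0 counts in the DMSO libraries. IFNL1 had 1, 3 and 2 counts in DHA and 0 counts in each DMSO library, which is at or under the limit of 3 counts that an absent signal allows (0.0789 to 0.0830 CPM).

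Receptor and kinase genes gave no call in edgeR. The 6 receptor subunits had a median log2 fold change of -0.21. At an unadjusted p under 0.05, 1 was lower, or 16.7%, against 10.7% of all genes. It was IFNAR2, at 37.8 ± 1.47 CPM in DHA and 46.2 ± 1.73 CPM in DMSO. IFNAR1 had 89.6 ± 9.94 CPM in DHA and 104 ± 14 CPM in DMSO, and IFNLR1, the specific subunit for type III interferons, had 9.67 ± 0.626 CPM in DHA and 10.8 ± 1.17 CPM in DMSO. The 11 genes of the JAK and STAT list had a median of -0.01, with JAK1 at 189 ± 22.1 CPM in DHA and 186 ± 28 CPM in DMSO (0.02 ± 0.15) and TYK2 at 44.6 ± 2.10 CPM in DHA and 50.9 ± 0.279 CPM in DMSO (-0.19 ± 0.12). The 15 tested genes of nucleic acid sensing had a median of 0.07, and the 4 tested IRF genes one of 0.08. IRF1, which drives part of the class without STAT2, had 134 ± 12.9 CPM in DHA and 103 ± 10.9 CPM in DMSO (0.38 ± 0.14, edgeR adjusted p = 0.163). STING1, the adaptor of DNA sensing, had 22.5 ± 4.24 CPM in DHA and 34.2 ± 6.15 CPM in DMSO (log2 fold change -0.61 ± 0.19, edgeR adjusted p = 0.121). TRIM25, a ubiquitin ligase in the RIGI pathway, had 286 ± 27.6 CPM in DHA and 205 ± 8.73 CPM in DMSO (0.48 ± 0.12, edgeR adjusted p = 0.0746). In neither did the groups overlap, and by DESeq2 the adjusted p was 0.0452 for STING1 and 0.0123 for TRIM25.

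Of 48 further interferon-stimulated genes tested, 3 fell and 1 rose, with a median of -0.12. These were 6.25% and 2.08% of the 48, against 1.6% and 1.1% of all genes. TNFSF10, which encodes the death ligand TRAIL, fell to 57.0 ± 5.40 CPM in DHA, against 129 ± 33.6 CPM in DMSO (log2 fold change -1.18 ± 0.19, edgeR adjusted p = 0.0171). Its call was lost without DHA 1 (edgeR adjusted p = 0.0712) or without DMSO 2 (0.0606). TRIM22, an antiviral ubiquitin ligase, fell to 14.3 ± 2.04 CPM in DHA, against 26.4 ± 3.43 CPM in DMSO (-0.88 ± 0.17, edgeR adjusted p = 0.0291), and GBP2, a guanylate-binding protein, to 23.4 ± 3.10 CPM in DHA, against 43.1 ± 10.05 CPM in DMSO (-0.88 ± 0.19, 0.0416). With a library left out, TRIM22 passed only without DHA 3, with an adjusted p of up to 0.117, and GBP2 in none of the 6 fits, with up to 0.162. LAMP3, a lysosomal protein that is also known from the unfolded protein response, rose to 62.9 ± 8.54 CPM in DHA, against 41.1 ± 0.769 CPM in DMSO (0.61 ± 0.14, edgeR adjusted p = 0.0490). Among fits with a library omitted LAMP3 passed only without DHA 2 or without DHA 3, with an adjusted p of up to 0.172 otherwise. It also missed the threshold with upper-quartile scaling (0.0511), unscaled totals (0.0786), the filter at a mean of 5 CPM (0.0553) and limma-voom (0.0548). ADAR, which edits double-stranded RNA, had 326 ± 39.9 CPM in DHA and 320.1 ± 27.4 CPM in DMSO (0.02 ± 0.14), and EIF2AK2, the kinase PKR, had 137 ± 33.8 CPM in DHA and 154 ± 9.68 CPM in DMSO (-0.17 ± 0.18).

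Of 7 tested genes induced mainly by interferon gamma, 1 rose and 0 fell in edgeR, or 14.3% and 0%, against 1.1% and 1.6% of all genes. The guanylate-binding genes were split between lists. GBP4 and GBP5 were in this one, while GBP1, GBP2 and GBP3 were among the further interferon-stimulated genes, where GBP2 fell. Of the 7, 5 had a negative log2 fold change, and the median was -0.18. At an unadjusted p under 0.05, 1 was higher and 1 lower, or 14.3% each, against 9.59% and 10.7% of all genes. The gene that rose was WARS1, the cytosolic tryptophanyl-tRNA synthetase, which is also a target of the amino acid stress factor ATF4. WARS1 rose to 210.4 ± 6.94 CPM in DHA, against 119 ± 4.08 CPM in DMSO (log2 fold change 0.82 ± 0.11, edgeR adjusted p = 0.0125), and was lost without DHA 1 (0.0694) or without DMSO 2 (0.0684).

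**Figure D5:**
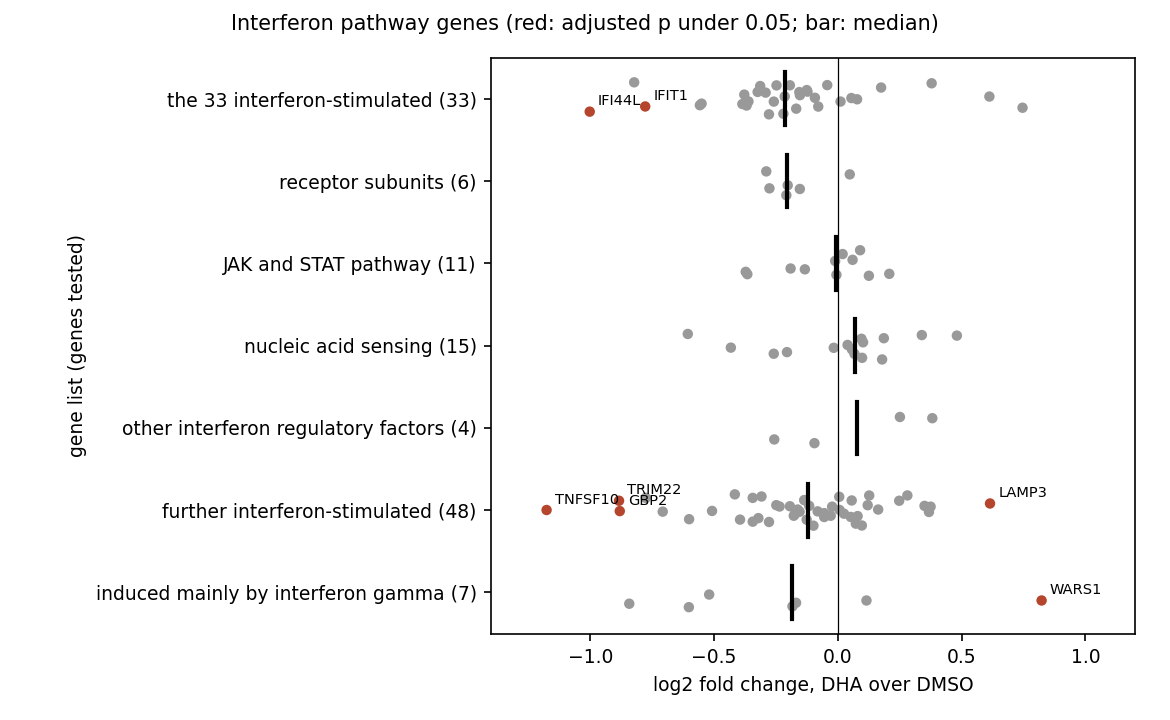
Log2 fold change, DHA over DMSO, of the 33 genes and of the tested genes of 6 further interferon lists, 1 point per gene, with the median of each list as a bar. Red points are past the edgeR threshold: IFI44L and IFIT1 among the 33, TNFSF10, TRIM22, GBP2 and LAMP3 among further interferon-stimulated genes, and WARS1 among genes induced mainly by interferon gamma.

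The libraries held 35980670 to 38120267 counts, and the 9 keratinocyte and epithelial markers were all expressed. They summed to 3743 to 4397 CPM in DHA and 5136 to 6533 CPM in DMSO. KRT5 lay between 1674 and 1987 CPM in DHA and between 2249 and 2372 CPM in DMSO. Of the 9, 4 were lower and 1 higher in every DHA library than in every DMSO library. These were 44.4% and 11.1%, against 13.5% and 14.3% of all genes, and none of the 9 passed in edgeR. Of 11 immune markers, 5 were not analysed here (PTPRC, CD3E, MS4A1, CLEC4C and CD163), and LYZ and IL3RA had at most 2 counts in a library. Their sum, nearly all from CD68, CSF1R and CD14, was 41.7 to 55.5 CPM in DHA and 48.8 to 56.2 CPM in DMSO. CD14 alone passed, at 2.20 ± 0.479 CPM in DHA and 5.64 ± 0.912 CPM in DMSO (edgeR adjusted p = 0.0240). Fibroblast markers summed to 9.16 to 13.2 CPM in DHA and 13.6 to 23.5 CPM in DMSO, mostly COL1A1, with at most 2 counts of DCN and 4 of PDGFRA in a library, and endothelial markers to 15.6 to 18.8 CPM in DHA and 16.9 to 26.6 CPM in DMSO, nearly all CDH5. The part of these sums, and of CD14, in the differences of the 33 genes was not tested. In bulk RNA, fewer cells that express a gene and less RNA per cell cannot be told apart.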

How the data were processed

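RNA was sequenced from 6 samples of CAL-27 cells, 3 with DHA and 3 with DMSO. The submitters' processing notes list fastp, HISAT2, HTSeq, R 3.2.0 and GRCh38, with no settings, annotation release or use of strand. The deposited values are raw read counts by gene, which were matched to samples through the names in the labels. Counting that leaves out reads matching several genes could lower or split the counts of paralogs such as IFITM1 and IFITM3, and of overlapping genes.

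Genes were kept by filterByExpr (minimum count 10), which left 14649, and scaled by TMM. CPM divides counts by the TMM-scaled library total. The quasi-likelihood F test of edgeR 4.0.16 (R 4.3.3), two-sided, compared DHA with DMSO, with Benjamini-Hochberg adjustment over all genes and a threshold of 0.05. The standard error (SE) is the size of the log2 fold change over the root of F. The fit was tested on simulated data. Alternatives were DESeq2 1.42.0, voom of limma 3.58.1, other scalings and filters, a replicate block, each library left out, and, added after the data were seen, a per-library adjustment for GC content and length by natural splines with 5 degrees of freedom. Length and GC content came from GENCODE 29 principal transcripts, for all 33 members and 89.6% of genes tested. Log2 CPM for differences between libraries used a prior count of 2. Coordinates (1-based) and promoters are from RefSeq, GRCh38.p14.

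The members, lists and tests were chosen with earlier results of these data known, and the text names all members, genes of the pathway lists past the threshold and a set of central pathway genes; markers are named from their lists. No list was tested. A few genes of the pathway and marker lists are not reported here by name.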

Additional observations from a re-analysis of the deposited data

How the results depend on the processing

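The count of genes changed was 649 with no filter, 252 above a mean of 5 CPM, 1135 in DESeq2's Wald test and 1130 with the correction for GC content and length, against 395 in edgeR, and 16 to 789 with a library left out. Members changed numbered 1 with unscaled library totals, 4 in DESeq2 and 7 with the correction, against 2, and 0 to 3 with a library left out. Other interferon pathway genes changed numbered 10 in DESeq2 and 11 with the correction, against 5, and 0 to 6 with a library left out. The members' median log2 fold change was -0.24 with upper-quartile scaling and -0.24 with unscaled totals, against -0.21, and -0.27 to -0.13 with a library left out. The cause of these shifts was not tested. The number of genes tested also differed, at 22503 with no filter and 10639 above a mean of 5 CPM. Same-numbered libraries had correlations of 0.26, 0.12 and -0.04 between their deviations from the group means, so the numbers were not taken to pair the samples; a replicate block gave 1272 genes, 6 members (1 higher, 5 lower) and 12 pathway genes. The 59 genes followed through 15 alternatives were members and pathway genes, without UBA7 and UBE2L6. For IFNE, RSAD2, STING1 and WARS1 there were 14 alternatives. IFNE and RSAD2 were under a mean of 5 CPM, and STING1 and WARS1 had no transcript length for the correction. No called gene changed sign, 33 values of genes without a call did, and 43 genes kept the same sign throughout. A call was lost in 32 values and gained in 17. With 3 libraries a group, genes that miss the threshold cannot be taken as unchanged.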
